A study of Mus musculus with 6 samples.

Results

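The genes of cholesterol synthesis and of its control by SREBP2 were followed in bulk RNA sequencing of mouse liver. The set holds 28 genes, matched by exact symbol to the 35976 gene names of the deposited count table, and all 28 were found and passed the filter on low counts. It is made up of 6 genes of SREBP2 and its processing, 8 enzymes from acetyl-CoA to farnesyl and geranylgeranyl diphosphate, 11 enzymes from squalene to cholesterol, and 3 genes of sterol transport and storage. Poly(A) RNA was sequenced from livers of male mice, all fed HFD (presumably high-fat diet), fasted for 16 hours and then refed for 4 hours before collection. There were 3 libraries of genotype IRE1fl and 3 of genotype IRE1PKO. IRE1 is a sensor of unfolded proteins in the endoplasmic reticulum, encoded by Ern1. The labels do not spell out fl or PKO, and the series title speaks of the pituitary and the liver. No label used here states the driver of the deletion, the strain, the age or whether libraries came from separate animals.

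Cholesterol is built from acetyl-CoA through mevalonate, isoprenoid diphosphates, squalene and a chain of sterol intermediates. SREBP2, encoded by Srebf2, is a transcription factor held in the endoplasmic reticulum membrane. Its escort SCAP carries it to the Golgi when sterols are scarce, where a pair of proteases frees its active part, while the INSIG proteins retain it when sterols are plentiful. Liver is a main site of cholesterol synthesis, and these enzymes are known to be expressed together and to differ between the fasted and the fed state.

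In the IRE1PKO libraries, 17 of the 19 enzymes had a higher mean than in IRE1fl, and 1 of the 28 genes passed the test. That gene was Sc5d, the sterol desaturase that makes 7-dehydrocholesterol from lathosterol, and none of the 28 was called lower. Among all 14954 tested genes, 5.68% were called higher and 3.86% lower (edgeR's quasi-likelihood test, adjusted p under 0.05). A positive log2 fold change was found for 17 of the 19 enzymes, beside 7441 of all 14954 tested genes. The enzymes moved together across the libraries, so they are not separate observations. Of the 28 genes, 14 had a log2 fold change of 1 or more, beside 615 of all 14954 tested genes. The median log2 fold change of the 28 genes was 0.97, beside -0.0014 over all tested genes. The distance between libraries of the same genotype was as large as this. For 14 of the 19 enzymes the ratio of the highest to the lowest IRE1fl library was larger than that of the IRE1PKO mean to the IRE1fl mean. The 14 include Ebp and Ggps1, which had the lower mean in IRE1PKO (ratios of 0.945 and 0.970) and so were bound to be counted. A ratio of highest to lowest is never below 1, so genes with about equal means are counted too. The share of all tested genes that would be counted was not taken. Their median ratio of the highest to the lowest IRE1fl library was 1.25. Groups did not overlap, with IRE1PKO higher, for 8 of the 28 genes, beside 16.0% of all tested genes. They did not overlap in the other direction for 1 gene, Mbtps1, beside 15.0%.

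Library totals ran from 35776219 to 39277435 counts, and 18649 to 19153 genes had a count. Alb, the albumin gene of hepatocytes, took 5.56% to 7.19% of counts. Ern1 had 61.2, 49.3 and 60.8 CPM (counts scaled to a common library size with TMM factors) in IRE1fl and 45.7, 36.6 and 44.2 CPM in IRE1PKO, a log2 fold change of -0.44 (SE 0.11, edgeR adjusted p = 0.0357). Its groups did not overlap. Leaving out IRE1fl 02 kept the call; leaving out any of the other 5 libraries ended it (edgeR adjusted p at most 0.137). If the deletion lies outside the liver, the value checks no label. P-values rest on how far libraries of a genotype lay apart, which may be technical variation alone, and fewer cells of a type cannot be told apart from less RNA per cell in whole liver.

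The enzymes were ordered alike across the libraries. IRE1fl 01 was the lowest and IRE1fl 02 the highest IRE1fl library for all 19 enzymes, the order found in 15.3% of all tested genes. Among the IRE1PKO libraries, 01 was the highest and 03 the lowest for 17 of the 19, the order of 20.5% of tested genes. Both orders together held for 17 of the 19 enzymes and 20 of the 28 genes, beside 3.34% of tested genes. The orders were chosen after these genes were seen, so the counts describe the libraries and are no test. The enzymes without both orders were Ggps1 and Ebp. Summed over the 28 genes, the level was 2001, 3589 and 2603 CPM in IRE1fl 01, 02 and 03, and 6403, 5317 and 3549.6 CPM in IRE1PKO 01, 02 and 03. The highest IRE1fl library and the lowest IRE1PKO library thus lay side by side. IRE1fl 02 was above IRE1PKO 03 for 18 of the 28 genes and 14 of the 19 enzymes, beside 48.9% of all tested genes.

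**Figure D1:**
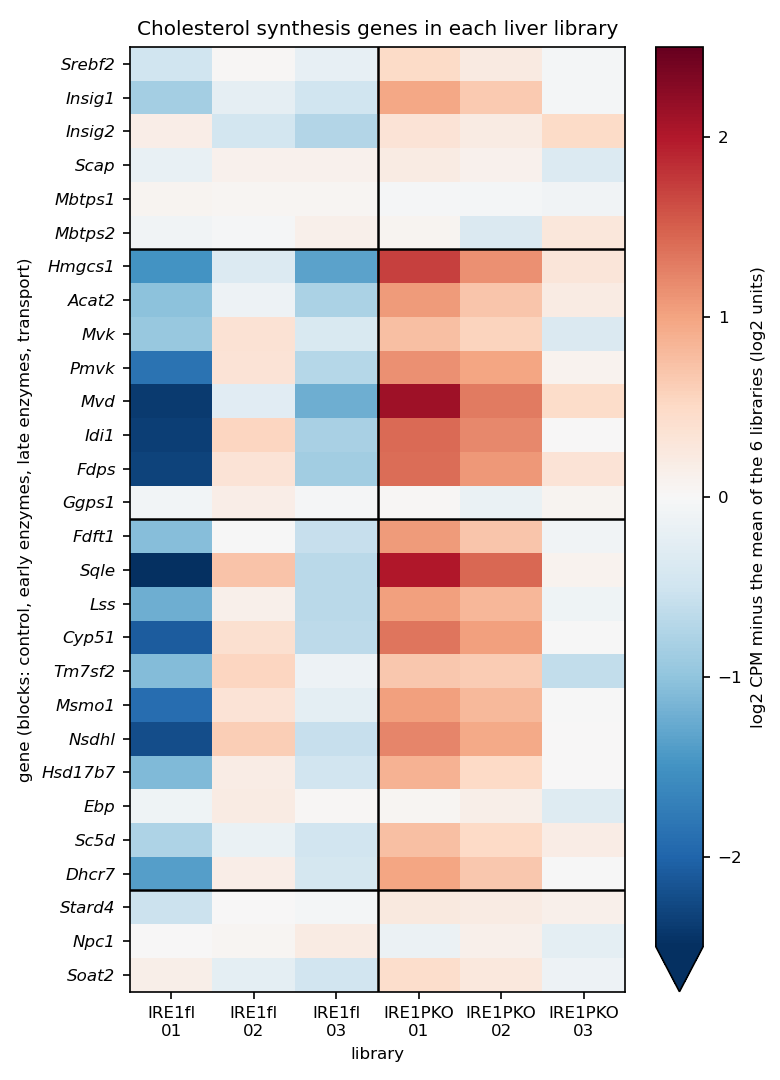
Each row is a gene and each column a library; the colour is log2 CPM minus the mean of the 6 libraries, and black lines part the roles and the genotypes. In the enzyme blocks IRE1fl 01 is blue (low) and IRE1PKO 01 red (high) for most genes, while Insig2, Mbtps1, Ggps1 and Npc1 show other patterns; Sqle in IRE1fl 01 lies beyond the colour scale.

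The median enzyme deviated from its own genotype mean by -0.83, 0.72 and 0.03 in IRE1fl 01, 02 and 03, in log2 CPM. In IRE1PKO 01, 02 and 03 it deviated by 0.44, 0.18 and -0.66. Over all tested genes these medians stayed between -0.0020 and 0.0049, where the TMM scaling and the centring on the genotype mean hold them. The 6 genes of SREBP2 and its processing had smaller medians, from -0.16 in IRE1PKO 03 to 0.15 in IRE1PKO 01, and the 3 transport and storage genes ran from -0.16 to 0.12. The within-genotype SD in log2 CPM, pooled over both genotypes, had a median of 0.67 over the 19 enzymes, 0.25 over the 6 control genes and 0.19 over all tested genes. For 13 of the 28 genes it was above the 90th percentile of tested genes.

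**Figure D2:**
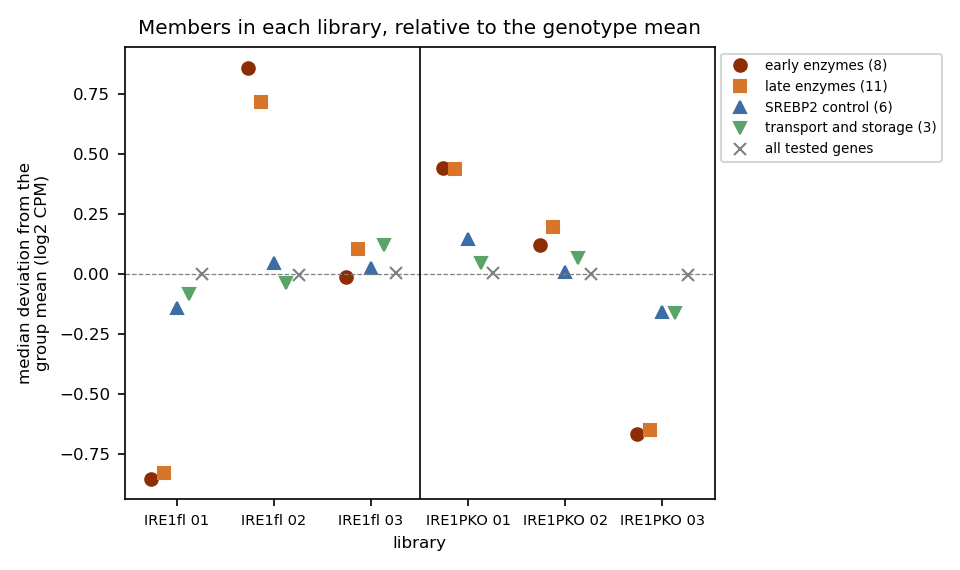
For each library, the median over a group of genes of log2 CPM minus the mean of that library's genotype; markers stand for the early enzymes (acetyl-CoA to isoprenoid diphosphates), the late enzymes (squalene to cholesterol), the SREBP2 control genes, the transport and storage genes and all tested genes. Both enzyme groups lie farthest below 0 in IRE1fl 01 and IRE1PKO 03 and farthest above in IRE1fl 02 and IRE1PKO 01. All tested genes lie at about 0 in every library, where the scaling and the centring hold them.

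Genes that lay farther apart between the extreme IRE1fl libraries tended to lie farther apart between the extreme IRE1PKO libraries. The difference IRE1fl 02 minus IRE1fl 01 had a median of 1.10 in log2 CPM over the 28 genes, and IRE1PKO 01 minus IRE1PKO 03 a median of 0.999. Across the 28 genes these differences, which share no library, had a Pearson r of 0.84 and a Spearman rho of 0.85. Over the 19 enzymes they were 0.77 and 0.65, and over all tested genes -0.04 and -0.03. The libraries were picked after their order was seen, and genes are not independent replicates, so these values describe the libraries. Sqle had the largest difference in both genotypes, 4.29 and 1.92, and Insig2 was below 0 in both, at -0.61 and -0.14.

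**Figure D3:**
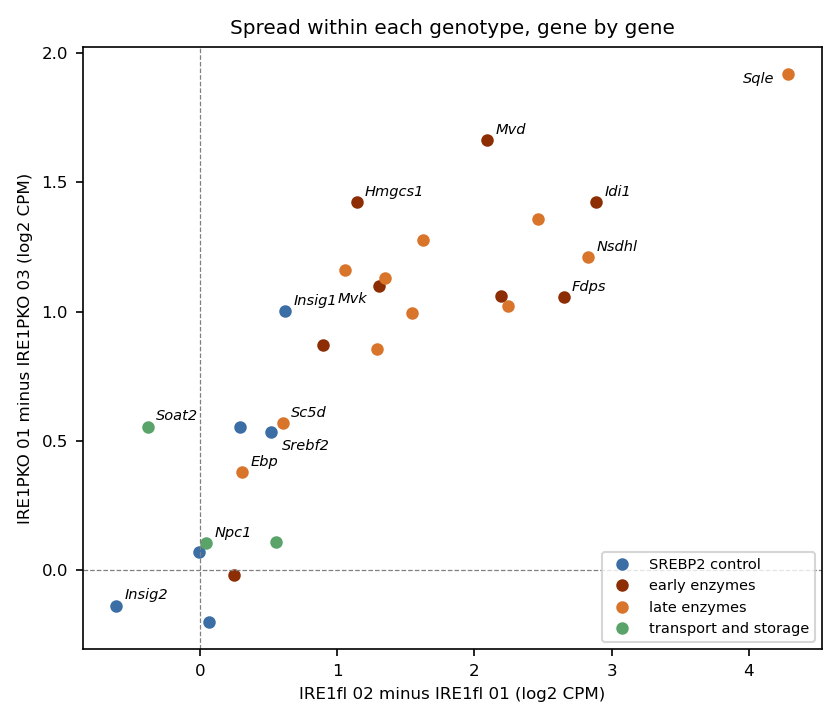
Each point is 1 of the 28 genes; the horizontal axis is IRE1fl 02 minus IRE1fl 01 and the vertical axis IRE1PKO 01 minus IRE1PKO 03, both in log2 CPM, coloured by role. Most enzymes lie at the upper right, Sqle farthest out at 4.29 and 1.92, and the control and transport genes lie nearer to 0, with Insig2 below 0 on both axes.

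The promoters of 22 of the 28 genes, in 28 windows, were found in the RefSeq table of GRCm38.p6 with 300 bases each, from 250 before to 50 after the transcript start. They were searched on both strands for TCACNCCAC, a form of the sterol regulatory element, for its first 8 letters TCACNCCA, and for CCAAT, the box bound by NF-Y, which is known to act beside SREBP. The longer element was in 1 gene, Hmgcs1, and in 1.24% of all 32851 windows of the table. The shorter one, which includes the longer, was in Hmgcs1, Srebf2 and Msmo1, and in 4.36% of all windows. CCAAT was in 18 of the 22 genes, Hmgcs1, Srebf2, Insig1 and Insig2 among them, and in 37.4% of all windows. A gene was counted if any of its windows matched, while the percentages are of single windows, so these are unlike units. A match is a description and no match says only that these letters are not in the window. The 250 bases before the start are printed 5′ to 3′ on the gene's strand for the 3 genes with the shorter element, which shared the library order, and for Sc5d, the gene that passed the test. Capitals mark matches to TCACNCCA and to CCAAT, which reads ATTGG on the other strand. Hmgcs1 lies at chr13:119690101-119690350 on the plus strand, Srebf2 at chr15:82147019-82147268 on the plus strand, Msmo1 at chr8:64733579-64733828 on the minus strand and Sc5d at chr9:42264301-42264550 on the minus strand.
Hmgcs1: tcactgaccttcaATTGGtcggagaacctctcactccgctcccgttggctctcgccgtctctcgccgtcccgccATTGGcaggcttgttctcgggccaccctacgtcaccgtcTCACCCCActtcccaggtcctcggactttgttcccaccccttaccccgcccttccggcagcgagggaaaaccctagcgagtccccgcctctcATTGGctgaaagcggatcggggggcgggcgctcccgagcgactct
Srebf2: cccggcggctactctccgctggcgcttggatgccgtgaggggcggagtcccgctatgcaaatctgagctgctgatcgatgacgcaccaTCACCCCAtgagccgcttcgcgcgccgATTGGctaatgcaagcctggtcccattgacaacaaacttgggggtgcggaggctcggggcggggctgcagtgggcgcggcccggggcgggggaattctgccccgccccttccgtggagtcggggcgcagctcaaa
Msmo1: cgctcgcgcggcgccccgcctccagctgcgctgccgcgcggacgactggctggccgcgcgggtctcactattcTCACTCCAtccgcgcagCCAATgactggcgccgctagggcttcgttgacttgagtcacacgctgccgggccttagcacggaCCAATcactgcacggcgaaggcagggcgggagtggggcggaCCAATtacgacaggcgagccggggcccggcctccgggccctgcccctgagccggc
Sc5d: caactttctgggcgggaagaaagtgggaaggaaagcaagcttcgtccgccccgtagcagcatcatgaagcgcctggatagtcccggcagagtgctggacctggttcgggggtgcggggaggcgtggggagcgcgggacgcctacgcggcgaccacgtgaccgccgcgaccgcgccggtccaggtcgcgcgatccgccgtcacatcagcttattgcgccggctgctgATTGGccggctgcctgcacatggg
The element starts 137 bases before the transcript start in Hmgcs1, 162 in Srebf2 and 177 in Msmo1. Hmgcs1 and Msmo1 hold 3 CCAAT boxes each in this stretch, Srebf2 holds 1 and Sc5d holds 1, starting 24 bases before the transcript start. The levels of the 4 genes all followed the order IRE1fl 01, 03, 02 and IRE1PKO 03, 02, 01, over ranges within IRE1fl of 2.21-fold for Hmgcs1, 1.43-fold for Srebf2, 4.75-fold for Msmo1 and 1.52-fold for Sc5d. Both orders held for 20 of the 28 genes, most of them without TCACNCCA in a window. Ebp, Ggps1 and Insig2 hold CCAAT and did not have both orders. Whether either motif bears on the order was not tested.

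Srebf2 (chromosome 15, 82147269 to 82205379, GRCm38) had 50.4, 72.3 and 62.0 CPM in IRE1fl 01, 02 and 03 and 99.7, 83.6 and 68.7 CPM in IRE1PKO 01, 02 and 03. It followed the library order of the enzymes in both genotypes, over a narrower range, and the groups overlapped between IRE1fl 02 and IRE1PKO 03. The log2 fold change was 0.45 (SE 0.16) and did not pass (edgeR adjusted p = 0.129). Divided by exon length, Srebf2 had 7.01 to 10.1 CPM per kb in IRE1fl and 9.57 to 13.9 in IRE1PKO. Srebf1, which encodes the related factors SREBP1a and SREBP1c of fat synthesis, had 87.8 to 166 CPM per kb in IRE1fl and 66.3 to 88.3 in IRE1PKO. Srebf1 was highest in IRE1fl 01, the library with the lowest Srebf2, and its log2 fold change of -0.63 (SE 0.25) did not pass (edgeR adjusted p = 0.178), but passed with DESeq2's Wald test (adjusted p = 0.0170). It was -0.30 without IRE1fl 01.

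Insig1 and Insig2 encode the membrane proteins that hold SCAP in the endoplasmic reticulum, and Insig1 is itself a classic SREBP target. Insig1 had 176, 271 and 225 CPM in IRE1fl 01, 02 and 03 and 618, 500.0 and 308 CPM in IRE1PKO 01, 02 and 03. The groups did not overlap, and the order within each genotype was that of the enzymes. Its log2 fold change of 1.09 (SE 0.29) did not pass (edgeR adjusted p = 0.0742). It passed when scaled by library totals alone (0.0470) and without IRE1PKO 03 (log2 fold change 1.32, edgeR adjusted p = 0.00480), and the adjusted p was 0.219 at its highest with another library left out.

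Insig2 was ordered differently. It had 167, 109 and 89.5 CPM in IRE1fl 01, 02 and 03, so the library lowest in the enzymes was the highest here. In IRE1PKO 01, 02 and 03 it had 188, 173 and 207 CPM, and the groups did not overlap. The log2 fold change was 0.64 (SE 0.22) and did not pass (edgeR adjusted p = 0.135), but it was 0.93 and passed without IRE1fl 01 (edgeR adjusted p = 0.00135). Per kb of exon, the ratio of Insig1 to Insig2 was 1.19, 2.79 and 2.82 in IRE1fl 01, 02 and 03 and 3.69, 3.25 and 1.68 in IRE1PKO 01, 02 and 03. The ratio was thus lowest in the library of each genotype where the enzymes were lowest, and its groups overlapped.

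Scap, Mbtps1 and Mbtps2, the escort and the proteases that cut SREBP2 in the Golgi, had log2 fold changes near 0. Scap ran from 158 to 194 CPM in IRE1fl and from 141 to 206 in IRE1PKO, with overlapping groups. Mbtps1 had 81.3, 80.8 and 80.0 CPM in IRE1fl and 76.2, 75.0 and 72.5 in IRE1PKO. These groups did not overlap, yet the log2 fold change of -0.11 (SE 0.08) did not pass (edgeR adjusted p = 0.396). Its within-genotype SD of 0.03 in log2 CPM was at percentile 0.341 of tested genes. Mbtps2 had 8.78 to 10.1 CPM in IRE1fl and 7.25 to 11.3 in IRE1PKO, and 28.4% of its exon length is shared with Yy2 on the same strand in GENCODE M21, whose highest count was 47, so its counts are uncertain. The direction of Scap (log2 fold change -0.01, SE 0.15) turned when library totals alone set the scale and that of Mbtps2 (0.02, SE 0.17) with a replicate block.

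Of the 8 enzymes from acetyl-CoA to isoprenoid diphosphates, 7 had a positive log2 fold change and none passed. Of all 14954 tested genes, 7441 had a positive log2 fold change and 5.68% were called higher. The median of the 8 was 1.36. Hmgcs1 (chromosome 13, 119690351 to 119708260), the cytosolic HMG-CoA synthase, had 80.8, 178 and 89.98 CPM in IRE1fl 01, 02 and 03 and 744, 501 and 277 CPM in IRE1PKO 01, 02 and 03. All IRE1PKO libraries were above all IRE1fl libraries. The log2 fold change was 2.12 (SE 0.54, edgeR adjusted p = 0.0918). Acat2, the cytosolic thiolase at the start of the pathway, had 41.5, 77.4 and 49.0 CPM in IRE1fl and 178, 137 and 97.3 CPM in IRE1PKO. Its groups did not overlap either, and its log2 fold change was 1.30 (SE 0.34, edgeR adjusted p = 0.0836; it passed without IRE1fl 02, at 1.60 and 0.0267). Mouse Acat2 has a closely similar neighbour, Acat3, so its counts may hold reads of either gene.

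Mvd, the decarboxylase that forms isopentenyl diphosphate, had the largest log2 fold change of the set. Its level was 3.52, 15.2 and 7.90 CPM in IRE1fl 01, 02 and 03 and 80.2, 45.0 and 25.3 CPM in IRE1PKO 01, 02 and 03, without overlap. The log2 fold change of 2.502 (SE 0.75) did not pass (edgeR adjusted p = 0.135), and its libraries ranged 4.31-fold within IRE1fl and 3.17-fold within IRE1PKO. Fdps (chromosome 3, 89093588 to 89101967), farnesyl diphosphate synthase, had 45.0, 283 and 123 CPM in IRE1fl and 589, 477 and 283 CPM in IRE1PKO. Its highest IRE1fl library and lowest IRE1PKO library were all but equal, at 282.9 and 283.1 CPM, and the log2 fold change was 1.58 (SE 0.78, edgeR adjusted p = 0.311), or 2.42 without IRE1fl 02. In GENCODE M21, 26.7% of its exon length is shared with Gm43738 on the same strand.

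The kinases Mvk and Pmvk and the isomerase Idi1 had overlapping groups, with IRE1fl 02 above IRE1PKO 03 in each. Idi1 had 10.0, 74.3 and 29.2 CPM in IRE1fl 01, 02 and 03, a 7.43-fold range, and 138, 118 and 51.2 CPM in IRE1PKO. Mvk had a log2 fold change of 0.61 (SE 0.47), Pmvk of 1.28 (SE 0.67) and Idi1 of 1.43 (SE 0.88), and none passed (edgeR adjusted p from 0.335 to 0.498). Without IRE1fl 02 these were 1.03, 1.97 and 2.38. Mvk was 0.35 without IRE1fl 01 and 0.40 without IRE1PKO 01. Ggps1, which makes geranylgeranyl diphosphate for protein prenylation, stood apart from the other 7. It had 8.75, 10.4 and 9.03 CPM in IRE1fl and 9.47, 8.25 and 9.61 CPM in IRE1PKO, a log2 fold change of -0.04 (SE 0.14) that turned to 0.028 with library totals as the only scaling.

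**Figure D4:**
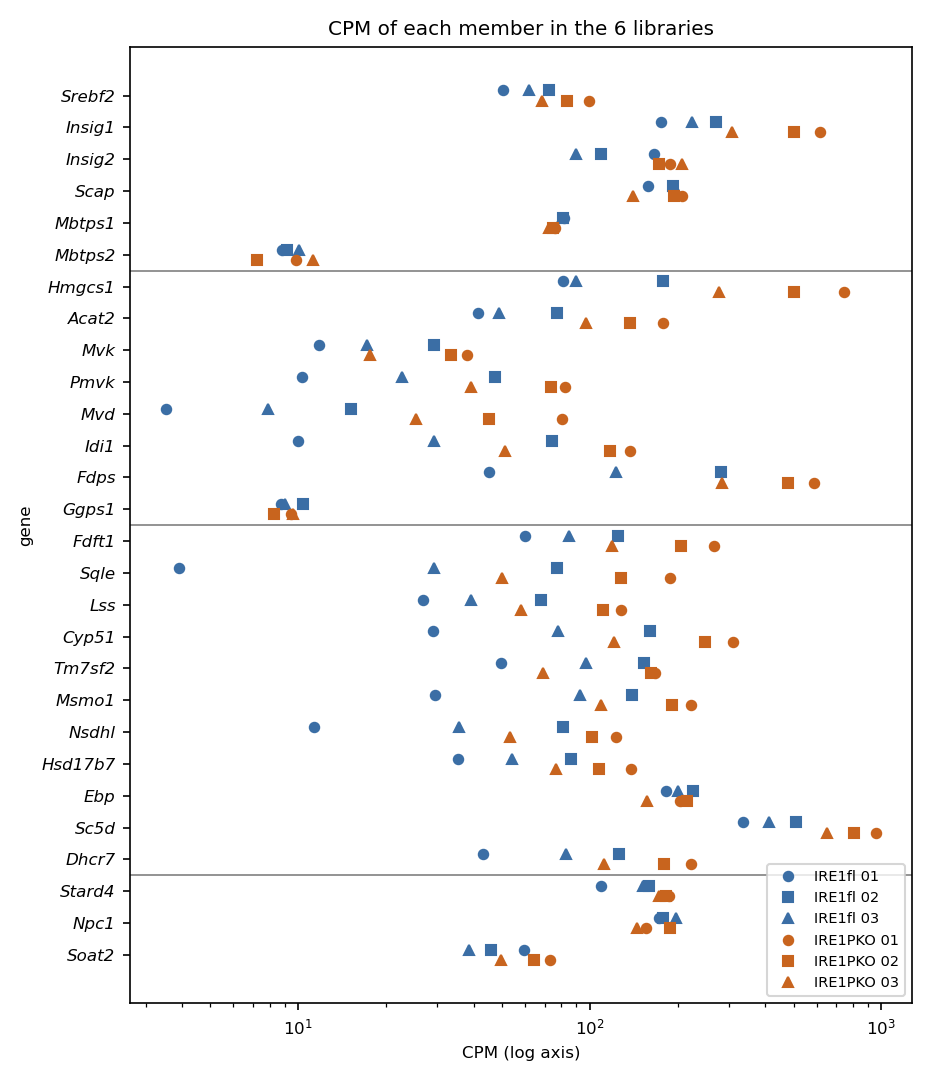
CPM of each of the 28 genes on a log axis; blue marks IRE1fl and orange IRE1PKO, and circles, squares and triangles are libraries 01, 02 and 03. The colours are apart with IRE1PKO to the right for Sc5d, Hmgcs1, Acat2, Mvd, Insig1, Insig2 and Stard4, apart with IRE1fl to the right for Mbtps1, all but level at their inner ends for Fdps, and overlap for most later enzymes, where the square of IRE1fl 02 lies right of the triangle of IRE1PKO 03.

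Of the 11 enzymes from squalene to cholesterol, 10 had a positive log2 fold change, 1 passed and the groups overlapped for 10. Of all 14954 tested genes, 7441 had a positive log2 fold change and 5.68% were called higher. In 16.0% the groups did not overlap, with IRE1PKO higher. Sc5d (chromosome 9, 42251592 to 42264300) had 336, 511 and 411 CPM in IRE1fl 01, 02 and 03 and 962, 804 and 649 CPM in IRE1PKO 01, 02 and 03. Every IRE1PKO library was above every IRE1fl library, with a range of 1.52-fold within IRE1fl and 1.48-fold within IRE1PKO. It rose by a log2 value of 0.94 (SE 0.18, edgeR adjusted p = 0.0131). The call was lost without IRE1fl 03 (log2 fold change 0.93, edgeR adjusted p = 0.0749) and without IRE1PKO 02 (0.94, edgeR adjusted p = 0.05001).

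Sqle (chromosome 15, 59315092 to 59331193), the squalene epoxidase that controls entry into sterols, showed the widest spread. It had 3.91, 77.4 and 29.3 CPM in IRE1fl 01, 02 and 03 and 189, 128 and 49.99 CPM in IRE1PKO 01, 02 and 03. The IRE1fl libraries thus ranged 19.8-fold, where the means of the genotypes differed 3.31-fold. Its log2 fold change of 1.73 had an SE of 1.18 (edgeR adjusted p = 0.453). Its within-genotype SD was 1.70 in log2 CPM, at percentile 99.9 of tested genes. Nsdhl, a sterol dehydrogenase on the X chromosome, came next among the late enzymes, with 11.4, 81.1 and 35.6 CPM in IRE1fl and 123, 102 and 53.2 CPM in IRE1PKO, a log2 fold change of 1.12 (SE 0.83). The demethylase Cyp51 ranged 5.53-fold within IRE1fl and the methyl sterol oxidase Msmo1 4.75-fold, and their log2 fold changes were 1.34 (SE 0.77) and 1.003 (SE 0.67). The log2 fold changes of Sqle, Nsdhl, Cyp51 and Msmo1 were 2.87, 1.98, 2.08 and 1.51 without IRE1fl 02. Nsdhl was 0.67 and Msmo1 0.59 without IRE1fl 01.

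Fdft1, the squalene synthase, had 60.2, 125 and 84.7 CPM in IRE1fl and 266, 205 and 119 CPM in IRE1PKO, so the groups overlapped only between IRE1fl 02 and IRE1PKO 03. Its log2 fold change was 1.13 (SE 0.42, edgeR adjusted p = 0.195), and 18.3% of its exon length lies opposite Ctsb, whose reads cannot be told apart if strand was not used in counting. Lss, the cyclase that forms lanosterol, and Dhcr7, the last reductase before cholesterol, had log2 fold changes of 1.15 (SE 0.50) and 1.03 (SE 0.50). The ketoreductase Hsd17b7 had one of 0.87 (SE 0.42). These 3 genes had edgeR adjusted p of 0.253 to 0.299, and in each IRE1fl 02 was above IRE1PKO 03.

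Tm7sf2, a sterol C14 reductase, and Ebp, a sterol isomerase, had the smallest differences of the late enzymes. Tm7sf2 had 49.5, 153 and 97.2 CPM in IRE1fl 01, 02 and 03 and 167, 163 and 68.9 CPM in IRE1PKO 01, 02 and 03. It followed the library order of the other enzymes, yet IRE1PKO 03 lay below 2 of the IRE1fl libraries and the log2 fold change was 0.41 (SE 0.58). Leaving out 1 IRE1fl library gave 0.085 (01) or 0.86 (02), and leaving out 1 IRE1PKO library gave 0.22 (01), 0.24 (02) or 0.73 (03). Vps51 shares 12.1% of its exon length on the same strand. Ebp had 182, 226 and 201 CPM in IRE1fl and 204, 216 and 157 CPM in IRE1PKO, a log2 fold change of -0.08 (SE 0.13), and its ranges were 1.24-fold and 1.38-fold.

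**Figure D5:**
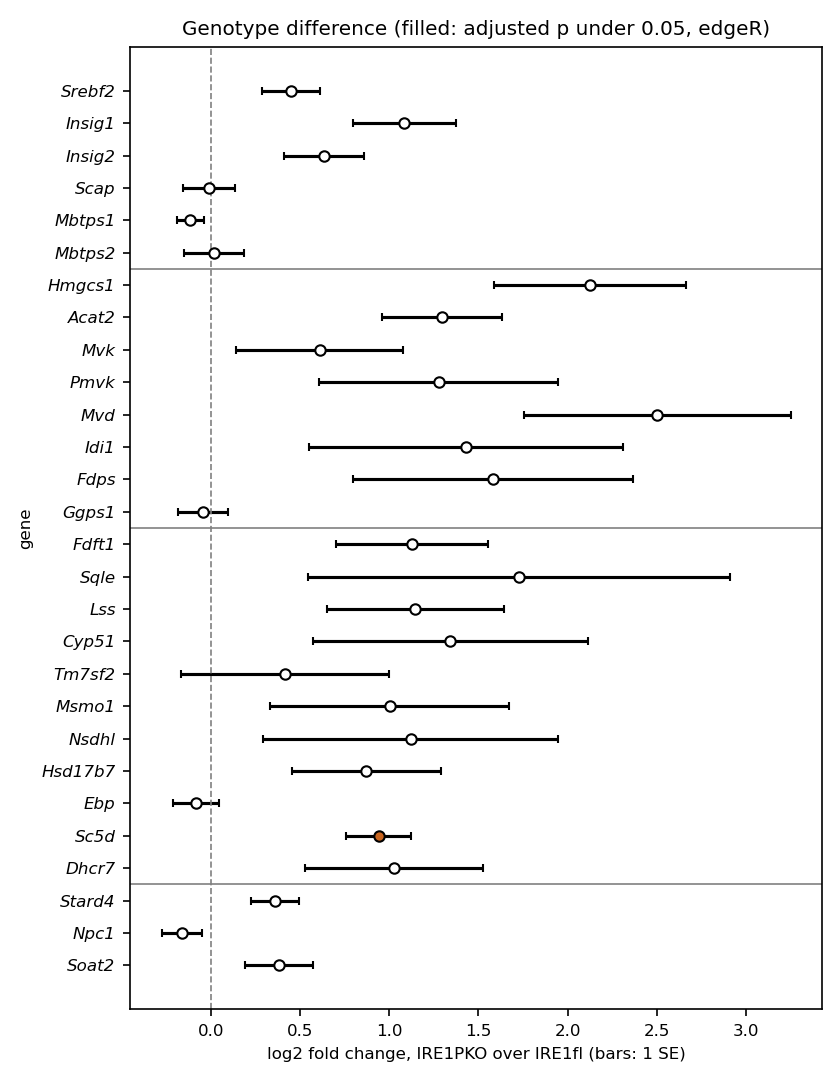
Log2 fold change of IRE1PKO over IRE1fl for each of the 28 genes, with bars of 1 SE and grey lines between roles; the filled point passed edgeR's test at an adjusted p under 0.05. Most points lie right of 0, with SE from 0.08 for Mbtps1 to 1.18 for Sqle, and the filled point is Sc5d at 0.94.

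Stard4, a soluble sterol carrier, had 109, 160.2 and 152 CPM in IRE1fl 01, 02 and 03 and 186, 182 and 173 CPM in IRE1PKO, without overlap. Its log2 fold change was 0.36 (SE 0.13, edgeR adjusted p = 0.120; 0.04996 with library totals as the only scaling). It was 0.20 without IRE1fl 01. Soat2, which esterifies cholesterol in hepatocytes, had 59.5, 45.7 and 38.6 CPM in IRE1fl and 73.1, 64.6 and 49.7 CPM in IRE1PKO. Like Insig2 it was highest of the IRE1fl libraries in 01, and the groups overlapped (log2 fold change 0.38, SE 0.19, edgeR adjusted p = 0.266). Without IRE1fl 03 or IRE1PKO 01 the value of Soat2 was 0.25. Npc1, which exports cholesterol from lysosomes, ran from 172 to 198 CPM in IRE1fl and from 145 to 189 in IRE1PKO (log2 fold change -0.16, SE 0.11). Npc1 was at -0.28 without IRE1PKO 02, -0.10 without IRE1fl 03 and -0.084 without IRE1PKO 03.

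The number of genes called depended on the test. In edgeR's test 9 of the 28 had an unadjusted p under 0.05, all higher in IRE1PKO, beside 2021 higher and 1720 lower of all 14954 tested genes. DESeq2's Wald test called 6 of the 28 higher, against 7.91% of tested genes, with adjusted p of 0.00157 for Hmgcs1, 0.00649 for Acat2 and for Mvd and 0.00940 for Insig2. Insig1 and Sc5d were the others. The limma-voom test called 5 higher, against 5.36% of tested genes. These were the same genes without Insig2, with adjusted p of 0.00825 for Hmgcs1, 0.0131 for Acat2, 0.0211 for Mvd and 0.0249 for Insig1. Neither called any of the 28 lower, against 5.95% and 3.87% of tested genes. The median log2 fold change was 0.69 without IRE1fl 01 and 1.25 without IRE1fl 02.

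Other genes of the pathway were taken from 4 lists. Of 15 tested genes of other sterol and isoprenoid synthesis, 2 rose and 1 fell, beside 5.68% and 3.86% of all tested genes, with a median log2 fold change of 0.18. Cyb5b, an electron carrier of the mitochondrial surface, rose from 445, 499.7 and 364 CPM to 716, 637 and 599 CPM (log2 fold change 0.58, SE 0.13, edgeR adjusted p = 0.0168). Leaving out IRE1fl 03, IRE1PKO 01 or IRE1PKO 02 ended the call (largest edgeR adjusted p = 0.0815). Por, the reductase that feeds electrons to Cyp51, Sqle and the liver P450 enzymes, fell from 642, 717 and 676 CPM to 444, 478 and 479.5 CPM (log2 fold change -0.54, SE 0.10, edgeR adjusted p = 0.00584). It followed the enzyme order within IRE1fl, but IRE1PKO 01 was its lowest IRE1PKO library. Idi2 of this list had no count in any library.

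Of 15 other SREBP targets and genes of sterol uptake, 5 rose and 2 fell, against those same shares, with a median of 0.82. Aacs, the cytosolic acetoacetyl-CoA synthetase, rose from 123, 93.4 and 116 CPM to 320.3, 218 and 287 CPM (log2 fold change 1.31, SE 0.15, edgeR adjusted p = 0.00132). Fads2, the delta-6 desaturase of polyunsaturated fatty acids, rose by 0.86 (SE 0.17, edgeR adjusted p = 0.0128), a call that ended when IRE1fl 03 or IRE1PKO 01 was left out (largest adjusted p = 0.0638). Pnpla3, a lipid droplet acylhydrolase, rose from 0.886, 0.908 and 0.539 CPM to 26.5, 9.63 and 10.7 CPM (log2 fold change 4.33, SE 0.54, edgeR adjusted p = 0.00694). Acly, the source of cytosolic acetyl-CoA, was named after its values were seen; it rose by 0.82 (SE 0.19, edgeR adjusted p = 0.0323) but not without IRE1fl 01, IRE1fl 03, IRE1PKO 01 or IRE1PKO 02 (at most 0.119), nor without the low-count filter (0.0588). The pair that fell, named after their values were seen, was Lrp1, a lipoprotein remnant receptor, at -0.40 (SE 0.10), and Scarb1, the HDL receptor, at -0.32 (SE 0.09). Both calls were lost whichever library was left out (edgeR adjusted p from 0.0518 to 0.131) and with library totals as the only scaling.

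Of 16 genes of sterol sensing and protein turnover, 1 rose and none fell, near the shares of all tested genes called higher (5.68%) and lower (3.86%), with a median of -0.0033. Of 20 genes of cholesterol storage, transport and export, 2 rose and 1 fell, beside the same 5.68% and 3.86%, with a median of -0.12. Lipa, the lysosomal acid lipase, rose from 218, 197 and 190 CPM to 348, 322 and 305 CPM (log2 fold change 0.69, SE 0.10, edgeR adjusted p = 0.00181). Nceh1, a cholesteryl ester hydrolase, rose by 0.68 (SE 0.13) but did not pass when IRE1fl 03 was left out (edgeR adjusted p = 0.0511). Lcat, the plasma enzyme that esterifies cholesterol on HDL, fell by 0.39 (SE 0.11), a call lost whichever library was left out (edgeR adjusted p up to 0.111).

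The library order of the enzymes was found in 5 of the 15 other synthesis genes, 4 of the 15 SREBP targets, 1 of the 16 sensing and turnover genes and none of the 20 storage and export genes, beside 3.34% of all tested genes. Named after their values were seen, Rdh11, a retinol dehydrogenase, had 13.04, 33.4 and 23.2 CPM in IRE1fl and 83.1, 74.9 and 38.6 CPM in IRE1PKO. Its difference of 1.496 in log2 (SE 0.49) missed the threshold (edgeR adjusted p = 0.154), which it passed with DESeq2's Wald test (adjusted p = 0.0240) and limma-voom (0.0282). Lbr, which shares the sterol reductase activity of Tm7sf2, had 7.17, 10.8 and 9.14 CPM and 15.3, 13.1 and 10.5 CPM, and did not pass (edgeR adjusted p = 0.0937) except without IRE1PKO 03 (0.0481) or the low-count filter (0.0314). Abcg5 and Abcg8 form the transporter that secretes sterols into bile. Abcg5 had 215, 103 and 138 CPM in IRE1fl 01, 02 and 03, the reverse of the enzyme order, and 73.0, 104 and 95.0 CPM in IRE1PKO. Neither Abcg5 (log2 fold change -0.74, SE 0.30) nor Abcg8 (-0.70, SE 0.23) passed (edgeR adjusted p = 0.206 and 0.122); Abcg5 was -0.41 without IRE1fl 01, and Abcg8 passed without IRE1fl 02 (0.0426) and with DESeq2's Wald test (0.00414).

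Some markers of cell types differed between the genotypes, to be read beside the 5.68% of all tested genes called higher and the 3.86% called lower. Of 10 stellate cell markers 7 rose (Lrat, Reln, Dcn, Col1a1, Col1a2, Col3a1 and Pdgfrb) and none fell, and their summed level was 251 to 312 CPM in IRE1fl and 476 to 490.0 CPM in IRE1PKO. Of 8 sinusoidal endothelial markers 3 rose (Pecam1, Stab2 and Fcgr2b), with sums of 197 to 221 and 233 to 319 CPM, and of 11 Kupffer cell and macrophage markers 1 rose (Gpnmb) and 1 fell (Marco), with sums of 371 to 511 and 459 to 616 CPM. Of 8 hepatocyte markers 1 fell, Tat, and their sum was 88185 to 103518 CPM in IRE1fl and 84172 to 102094 CPM in IRE1PKO. Of 5 tested cholangiocyte markers 1 fell, Sox9, with sums of 13.7 to 16.1 and 6.24 to 9.29 CPM over the 6 in the table. Sox9 alone made up most of each sum, at 12.7, 12.1 and 11.9 CPM in IRE1fl and 7.14, 3.83 and 4.08 CPM in IRE1PKO. The difference in sums is therefore mainly that of 1 gene. Of 10 tested lymphocyte and neutrophil markers 1 fell, Cd4, with sums of 19.7 to 24.8 and 16.7 to 24.5 CPM over the 11 in the table. A single call in a direction, in a list of 5 to 11 genes, says little about a cell type. No listed marker was at 0 in every library. Hepatocyte marker sums were 91946, 88185 and 103518 CPM in IRE1fl 01, 02 and 03, where the 19 enzymes summed to 1019, 2469 and 1553 CPM. In IRE1PKO 01, 02 and 03 the marker sums were 102094, 93937 and 84172 CPM and the enzyme sums 4790, 3849 and 2374 CPM. Both sums thus fell in the same order in IRE1PKO, but not in IRE1fl. Most of the marker sum is Alb, at 71779, 63227 and 57900.5 CPM in IRE1PKO 01, 02 and 03. Apoa1 and Ttr fell in that order too, while Hnf4a, Tat, Cyp2e1, Apob and Fgb did not. The part of any of these markers in the levels of the 28 genes was not tested.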

How the data were processed

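The deposited file holds raw counts by gene symbol for the 6 libraries, made on build mm10 according to the submitters' processing notes. Aligner, counter and annotation: not given in the sources used here. Whole-number counts of 1 to 8 were even 2.58 to 3.19 times as often as odd; whether reads or fragments were counted is not stated. The table held 27 date-like names with 0.178% of counts; none is named. Pairs of libraries within a genotype had chi-square values per gene of 30.7 to 68.5, so none was a copy.

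Of 22427 genes with a count, 14954 passed filterByExpr. Scaling used TMM, and genes were tested in edgeR 4.0.16 under R 4.3.3, by the two-sided quasi-likelihood test with robust dispersion and Benjamini-Hochberg adjustment over all tested genes, at a threshold of 0.05. Log2 fold changes are IRE1PKO over IRE1fl; the SE is the log2 fold change over the root of F. Log2 CPM used a prior count of 2. An exact permutation test of 3 against 3 cannot go below 0.1. CPM per kb used exon lengths of GENCODE M21, and coordinates come from RefSeq GRCm38.p6, the build of mm10. The steps were tested on simulated data. Alternatives were DESeq2 size factors, library totals, no filter, DESeq2 1.42.0, limma-voom (3.58.1), a replicate block and each library left out.

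The 28 genes and the lists were chosen with earlier results of these data known. All 28 are named, with Ern1, up to 4 called genes of smallest p from each other pathway list, called markers, and others said to be chosen after their values were seen. Some genes of the lists are not reported here. Of the list symbols, 3 were matched by an older name and 1 was not found.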

Additional observations from a re-analysis of the deposited data

How the results depend on the processing

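Of the 28 genes, 1 was called higher; this became 3 with library totals, 6 with DESeq2's Wald test, 5 with limma-voom and 2 with the replicate block, and 0 to 2 when single libraries were left out (0 without IRE1fl 03 or IRE1PKO 02). None was called lower in any setting. The median log2 fold change of 0.97 ran from 0.69 to 1.25 with a library left out. Of the other synthesis genes, 4 were higher without the filter, and 1 to 3 with a library left out. Of the other SREBP targets, 8 were higher with DESeq2's Wald test and 3 to 6 with a library left out; 0 were lower with library totals and 0 to 0 with a library left out. Of the sensing and turnover genes, 2 were higher with library totals, without the filter and with the replicate block, 1 to 2 with a library left out, and 2 were lower with DESeq2's Wald test. Of the storage and export genes, 1 to 3 were higher and 0 to 1 lower with a library left out, 0 lower with library totals and 3 with DESeq2's Wald test. Over all genes, 849 were higher and 577 lower; with a library left out the ranges were 398 to 868 and 255 to 616, and DESeq2's Wald test called 890 lower. Ern1 was not called with library totals (-0.37) or limma-voom (-0.44), and ran from -0.53 to -0.35 with a library left out. The causes were not tested.

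Genes near 0 changed sign without being called. Ebp ran from -0.18 to 0.046 with a library left out, and was 0.00015 without IRE1fl 02. Scap was 0.057 with library totals and ran from -0.12 to 0.14 with a library left out. Ggps1 was 0.028 with library totals and ran from -0.095 to 0.035. Mbtps2 was -0.0011 with the replicate block and ran from -0.13 to 0.18. Library totals moved the median of all genes by 0.07 and called 1148 higher and 415 lower.

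Deviations of same-numbered libraries had r of 0.07, -0.02 and 0.10 across genes, and those of differently numbered ones ran from -0.11 to 0.035. The replicate block called 1051 of all genes higher and 814 lower, beside 849 and 577 without it. Whether the numbers pair the libraries is not settled by these values. With the replicate block Sc5d stayed called and Soat2 passed at a log2 fold change of 0.39 (edgeR adjusted p = 0.0112).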
